A study of Mus musculus with 24 samples.

Results

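The beta crystallins and gamma-S crystallin were represented in the deposited gene table by Cryba1, Cryba2, Cryba4, Crybb1, Crybb2, Crybb3 and Crygs, which are 7 of its 56748 genes. They were picked out by their symbols, and the choice was made with earlier results of these data known. Their transcripts were followed in 24 libraries, the neural retina and the remaining eye cup of each of 12 mice. PRDM13-OE mice are heterozygous for a knock-in at Rosa26 in which the ubiquitous EF-1α promoter drives rtTA, the reverse tetracycline transactivator, and the TRE3G promoter drives human PRDM13, so the cassette is not limited to 1 cell type of the eye. Wildtype littermates without it were the controls. Mice of each genotype were untreated, or were given doxycycline (dox) at 2 mg/ml with 10% sucrose in their water for 72 hours from P28, and each of these 4 groups held 3 mice. The untreated mice received neither dox nor sucrose, so these cannot be told apart. By the sample titles, the eye cup held the RPE, choroid and sclera. Libraries had between 15825059 and 24908314 counts.

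Crystallins are the main soluble proteins of the vertebrate lens, where elongating fibre cells fill with them and lose their organelles. Alpha crystallins are small heat shock proteins and act as chaperones, whereas beta and gamma crystallins are structural proteins built from Greek key motifs. Beta crystallins assemble into dimers and larger oligomers of acidic (Cryba) and basic (Crybb) subunits, and gamma-S is a monomer of the same superfamily made in the adult lens. Some beta crystallins, Crybb2 and Cryba1 among them, are also known from the retina, glia and RPE. The lens was not among the tissues dissected here. The question was whether the 7 genes kept fixed ratios to each other across libraries, as RNA from 1 common source would give, or differed in ratio between the tissues. In these bulk samples, fewer cells of a type and less RNA per cell cannot be told apart.

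Of the 7 genes, 4 lie in 2 pairs on chromosome 5 (GRCm39, positions as deposited). Cryba4 (ENSMUSG00000066975, chr5:112394359-112400384, minus strand), an acidic subunit, and Crybb1 (ENSMUSG00000029343, chr5:112403681-112417451, plus strand), a basic subunit, start 3296 bases apart on opposite strands. Crybb2 (ENSMUSG00000042240, chr5:113206124-113217983), the basic subunit best known as the major beta crystallin of the adult lens, and Crybb3 (ENSMUSG00000029352, chr5:113223705-113229450), a further basic subunit, are both on the minus strand with 5721 bases between them. No other listed gene lies between the members of either pair. The other 3 genes, Cryba1 (ENSMUSG00000000724, chr11:77609441-77616109), which encodes a pair of acidic subunits from alternative start codons, Cryba2 (ENSMUSG00000006546, chr1:74929093-74932302), an acidic subunit, and Crygs (ENSMUSG00000033501, chr16:22623953-22630327), are on the minus strand of separate chromosomes. In GENCODE vM39, the gene models of Cryba4 and Crybb1 overlap on opposite strands. Cryba1 overlaps Nufip2, and Crybb2 and Crygs overlap noncoding genes on the other strand, so reads within the overlaps are uncertain where counting ignored strand, which the sources used here do not state. No stretch of 50 bases was shared between the transcripts of any 2 of the 7 genes.

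The 250 bases before the RefSeq start sites of Cryba4, Crybb1 and Crybb2 are shown because the shares of these genes among the 7 behaved differently in the libraries described below. Capitals mark TGCTGA, the core of the Maf recognition element bound by large Maf factors, TATAAA, the TATA box, and CATTGT, the SOX core (on either strand). The sequences are given 5′ to 3′ on the strand of the gene, from RefSeq (GRCm38.p6), and each was found once in GRCm39, at chr5:112400385-112400634 (minus strand) for Cryba4, chr5:112403436-112403685 (plus strand) for Crybb1 and chr5:113217984-113218233 (minus strand) for Crybb2.
Cryba4: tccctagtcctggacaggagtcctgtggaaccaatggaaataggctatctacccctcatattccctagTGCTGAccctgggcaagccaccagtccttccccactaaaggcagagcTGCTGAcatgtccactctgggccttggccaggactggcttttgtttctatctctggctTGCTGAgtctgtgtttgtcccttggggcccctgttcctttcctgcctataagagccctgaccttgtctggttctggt
Crybb1: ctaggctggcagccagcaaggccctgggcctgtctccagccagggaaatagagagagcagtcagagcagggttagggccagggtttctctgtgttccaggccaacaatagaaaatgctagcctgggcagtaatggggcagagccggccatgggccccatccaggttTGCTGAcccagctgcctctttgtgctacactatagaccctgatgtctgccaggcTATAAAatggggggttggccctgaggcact
Crybb2: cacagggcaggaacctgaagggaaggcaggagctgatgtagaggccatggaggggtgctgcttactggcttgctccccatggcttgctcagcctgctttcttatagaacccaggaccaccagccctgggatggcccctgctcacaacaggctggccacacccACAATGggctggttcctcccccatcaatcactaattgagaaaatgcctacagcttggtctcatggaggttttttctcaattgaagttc
TGCTGA was found on either strand in the promoters of 6 of the 7 genes, all but Crybb2, and in 19.5% of 32851 RefSeq promoters of the same window. The Cryba4 promoter held it 3 times. TATAAA was found in 4 of the 7 (Cryba1, Cryba2, Crybb1 and Crygs) and in 13.6% of all promoters, and CATTGT in Crybb2 and Crygs and in 12.6% of all promoters. The search covered 250 bases before to 50 bases after each start, and a match of letters is not a measured binding site.

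The 7 crystallins were detected in both tissues and their level varied widely between mice. Summed over the 7 genes, retinas had between 41 and 103417 counts, or 2.08 to 5616 CPM (counts scaled to 1 sequencing depth by TMM), a 2701-fold range. Eye cups had between 66 and 40161 counts, or 3.95 to 1919 CPM, a 485-fold range. In the highest library, the retina of wildtype mouse 1 with dox, these transcripts were 0.580% of all counts.
In the retinas of wildtype mice with dox, mice 1, 2 and 3 had 103417, 40072 and 1007 summed counts, and those of untreated wildtype mice had 9257, 1718 and 3039. In the retinas of untreated PRDM13-OE mice the sums were 624, 62 and 978, and in those of PRDM13-OE mice with dox 146, 236 and 41. Every wildtype retina therefore had more of these counts than every PRDM13-OE retina, although PRDM13-OE untreated mouse 3 (56.7 CPM) and wildtype dox mouse 3 (56.1 CPM) were nearly level after scaling.
The eye cups had 27036, 6502 and 7844 summed counts in wildtype mice with dox and 40161, 4500 and 2512 in untreated wildtype mice. They had 2229, 564 and 1531 in untreated PRDM13-OE mice and 684, 3071 and 66 in PRDM13-OE mice with dox. In the eye cups the genotypes overlapped, since PRDM13-OE dox mouse 2 (180 CPM) was above untreated wildtype mouse 3 (122 CPM).

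**Figure D1:**
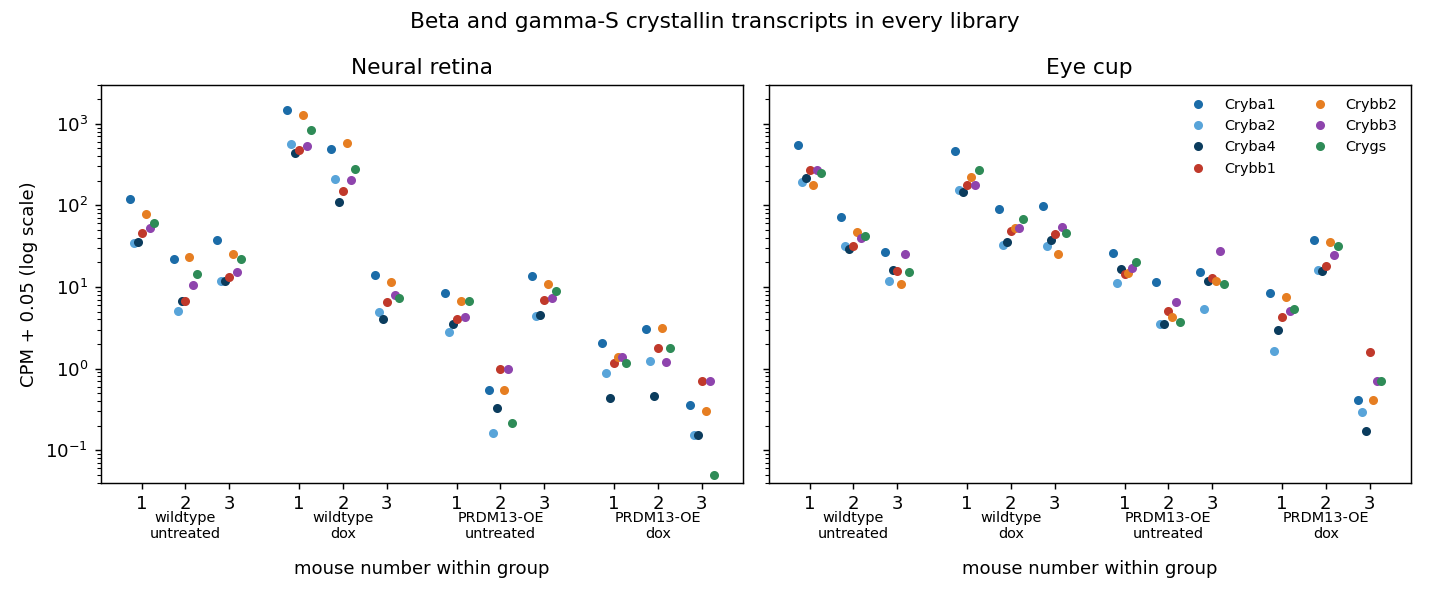
Level of each of the 7 crystallin genes in the 12 retinas (left) and 12 eye cups (right), as CPM + 0.05 on a log scale, with 1 point per gene and library and mice ordered by group and number. The genes moved together, and wildtype dox retinas 1 and 2 stood above all other retinas.

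The level in a mouse's retina did not follow the level in its eye cup in every mouse. In wildtype dox mouse 1 the summed level was 5616 CPM in the retina and 1615 CPM in the eye cup, and in wildtype dox mouse 2 it was 2028 and 379 CPM, so the retina was 3.48-fold and 5.35-fold higher. In untreated wildtype mouse 3 the retina was 1.12-fold higher. The other 9 mice had the higher level in the eye cup, by 1.68-fold in untreated PRDM13-OE mouse 3 up to 14.7-fold in PRDM13-OE dox mouse 2. PRDM13-OE dox mouse 3 had the lowest level of all mice in both tissues.

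**Figure D2:**
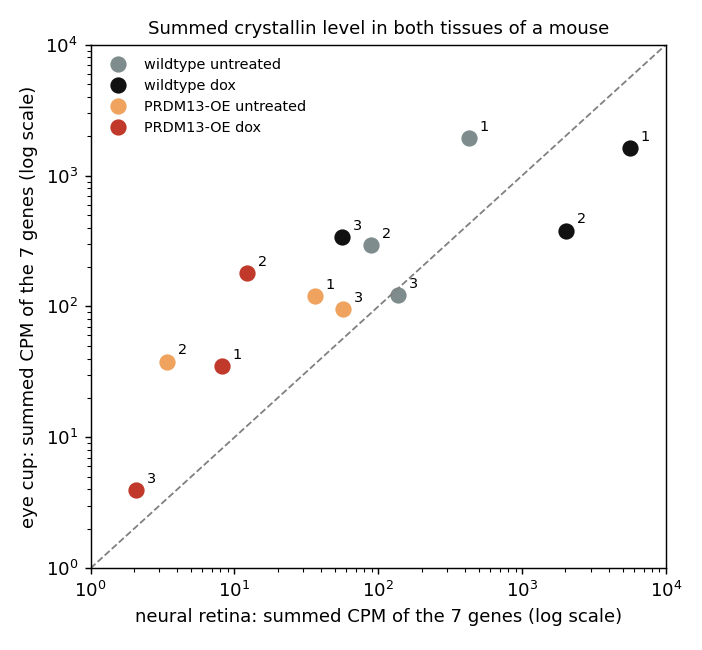
Summed CPM of the 7 genes in the neural retina (x axis) and the eye cup (y axis) of the same mouse, both on log scales, with 1 point per mouse labelled by its number and coloured by group. The dashed line marks equal levels, and the 3 mice below it are wildtype.

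With the authors' FPKM, which divide by gene length, the medians over the 12 retinas were 9.14 for Crygs, 8.58 for Cryba1, 6.50 for Crybb1, 5.43 for Crybb2, 4.96 for Cryba4, 3.78 for Cryba2 and 3.20 for Crybb3. The medians over the 12 eye cups were 30.4 for Crygs, 20.8 for Cryba1, 19.6 for Cryba4, 17.6 for Crybb1, 12.0 for both Crybb3 and Cryba2, and 9.79 for Crybb2. Crygs and Cryba1 came first in both orders, and Crybb2 was in the middle in the retina and last in the eye cup. The range over libraries was far wider than the gap between any neighbours in either order.

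In the retinas of mice with dox, PRDM13-OE mice had less of all 7 crystallins than wildtype mice, and by CPM the groups did not overlap for any of them. Of all genes tested, 15.4% were lower in the same way, with no overlap. Crybb2 had 24, 59 and 5 counts in the PRDM13-OE retinas and 23678, 11480 and 204 in the wildtype retinas. Cryba4 had 7, 8 and 2 counts against 8141, 2172 and 71. Both genes were far higher in wildtype mice 1 and 2 than in mouse 3.
Crybb1 had 20, 33 and 13 counts in PRDM13-OE and 8801, 2982 and 117 in wildtype. Crybb3 had 24, 22 and 13 counts against 9956, 4091 and 142. Crygs was not detected in PRDM13-OE mouse 3, where a count of 0 allows up to 3 counts, and had 20 and 33 counts in mice 1 and 2, against 15311, 5568 and 132 in wildtype. The acidic subunits Cryba1 and Cryba2 had at most 58 and 23 counts in a PRDM13-OE retina and at least 254 and 87 in a wildtype one.
The log2-fold change ran from −9.25 ± 1.61 (SE, 3 mice per group) for Cryba4 to −7.51 ± 1.28 for Crybb1, with edgeR adjusted p from 0.00183 to 0.00297. All 7 were called lower, where 1.5% of the 20560 genes tested were called lower, and their median was −8.54 beside 0.01 over all genes. With robust fitting none of the 7 was called (edgeR adjusted p from 0.100 to 0.119). Without wildtype retinas 1 and 2, which leaves 1 wildtype retina, the log2-fold changes ran from −3.71 for Cryba4 to −2.50 for Crybb1.

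The 4 retina groups placed these differences beside those without dox. In untreated mice, the PRDM13-OE retinas had 143, 9 and 237 counts of Cryba1 and the wildtype retinas 2570, 432 and 838. Crybb2 had 114, 9 and 188 counts in untreated PRDM13-OE and 1723, 448 and 556 in untreated wildtype. By CPM, 6 of the 7 were lower with no overlap between these groups, all but Crybb1, where 5.18% of the genes tested were.
The log2-fold changes of the 7 lay between −2.99 ± 0.69 (Cryba1) and −2.45 ± 0.65 (Crybb1), with unadjusted p from 0.000611 to 0.00257 in edgeR. None of the 7 was called, as was none of the 20668 genes tested (0%), with an edgeR adjusted p of 0.995. At an unadjusted p under 0.05 all 7 passed, where 3.8% of all genes did, and DESeq2 called none of the 7. The 7 genes rose and fell together over the libraries of either tissue (Pearson r between any 2 of them at least 0.945). Counts of members that passed or were called, here and elsewhere, are therefore not counts of independent results.
With dox, wildtype retinas had higher values than untreated wildtype retinas, with log2-fold changes from 3.27 ± 1.01 (Crybb3) to 3.91 ± 1.11 (Cryba2). None of the 7 was called (edgeR adjusted p from 0.303 to 0.359, 0.00485% of genes called higher). All 7 passed an unadjusted p under 0.05, where 9.3% of all genes did, and DESeq2 called none. Wildtype dox mice 1 and 2 lay above the untreated range and mouse 3 below it. Without mice 1 and 2, which leaves 1 wildtype dox retina, all 7 changes turned negative, from −2.16 for Cryba4 to −1.71 for Crybb3.
Between PRDM13-OE retinas with dox and untreated, Cryba4 was called lower, with a log2-fold change of −3.17 ± 0.78 (edgeR adjusted p = 0.0338, 0.621% of genes called lower). Its counts were 7, 8 and 2 with dox and 60, 5 and 78 without, so the groups overlapped. The other 6 had changes between −2.48 and −1.76 and were not called. The Cryba4 call was lost with DESeq2 and with robust fitting. It was also lost when any retina other than untreated PRDM13-OE retina 2 was left out. Without that retina all 7 were called, and the share of all genes called in that fit is not given here.
The genotype by dox interaction over the 12 retinas had values from −6.53 to −5.03 on the log2 scale for the 7 genes, with edgeR adjusted p from 0.0948 to 0.229, so none was called, where 0.515% of genes were called lower. All 7 had an unadjusted p under 0.05, where 14.4% of all genes did, and DESeq2 called 4. The edgeR result depended on its settings, since all 7 were called with no filter on low counts or without wildtype dox retina 3. The shares of all genes called by DESeq2 and in these alternatives are not given here, so these counts have no background beside them.
A comparison of the genotypes over both treatments, added after the values were seen, gave log2-fold changes from −5.97 ± 0.97 (Cryba4) to −4.98 ± 0.82 (Crybb1). All 7 were called lower (edgeR adjusted p from 0.000557 to 0.00133), where 0.311% of the 22538 genes tested were. All 7 remained called when any single retina was left out, and the shares of all genes called in those fits are not given here.

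**Figure D3:**
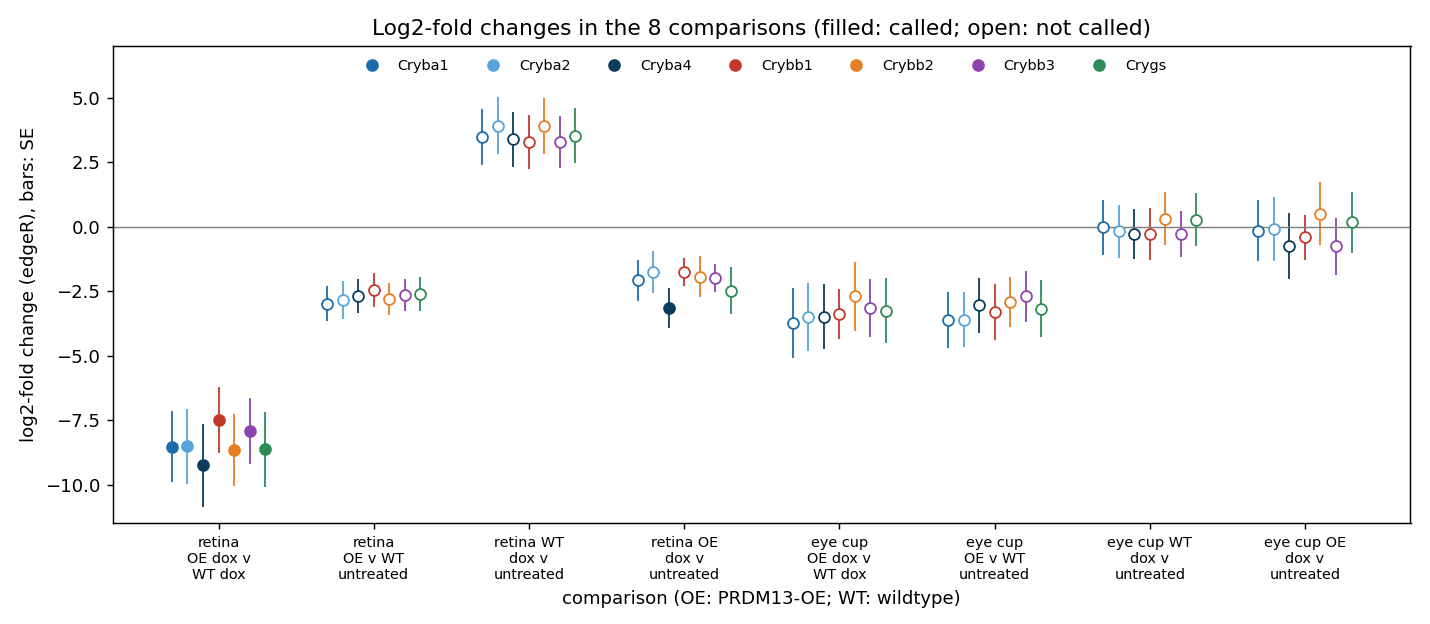
Log2-fold change (edgeR, y axis, bars show the SE) of the 7 genes in 4 retina and 4 eye cup comparisons (x axis), with 3 libraries per group. Filled points were called and open points were not, so that all 7 genes were called in the retina comparison of PRDM13-OE with wildtype with dox and Cryba4 alone in 1 further comparison.

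In the eye cups, the members were also lower in PRDM13-OE by value, but no difference passed the test. With dox, Crybb2 had 145, 610 and 6 counts in PRDM13-OE and 3707, 898 and 583 in wildtype, so the groups overlapped. Cryba4 had 57, 265 and 2 counts against 2468, 617 and 870, with no overlap. By CPM, 6 of the 7 were lower with no overlap, all but Crybb2, where 10.8% of the genes tested were. PRDM13-OE mouse 3 was far below the others.
The 7 log2-fold changes with dox were between −3.73 ± 1.36 (Cryba1) and −2.70 ± 1.34 (Crybb2), with an edgeR adjusted p of 0.597. None was called (0.0138% of genes called lower), 6 passed an unadjusted p under 0.05, where 8.2% of all genes did, and DESeq2 called 1. The shares of all genes called by DESeq2 in the eye cup comparisons are not given here.
In untreated mice the changes lay between −3.63 and −2.71 with an edgeR adjusted p of 1.00, and none was called (0% of genes called lower). All 7 passed an unadjusted p under 0.05, where 1.9% of all genes did, and DESeq2 called none. Over both treatments the changes ran from −3.66 to −2.79, and again none of the 7 was called in edgeR (0% of genes), with all 7 at an unadjusted p under 0.05, where 3.7% of all genes were, and 2 called by DESeq2.
Dox itself gave changes between −0.29 and 0.30 in wildtype eye cups (0% of genes called) and between −0.77 and 0.50 in PRDM13-OE eye cups (0.0139% of genes called), within 1 SE of 0 in every case. No member was called or had an unadjusted p under 0.05 in these, where 29.9% and 4.1% of all genes did, and DESeq2 called none. In mice with dox, the genotype difference in the retina minus that in the eye cup was between −6.00 and −4.14 on the log2 scale, with edgeR adjusted p from 0.685 to 0.691, so a difference between the tissues was not shown for any member (0% of genes called). All 7 had an unadjusted p under 0.05, where 7.2% of all genes did, and DESeq2 called none. The fit of this interaction had no mouse term. Without wildtype dox retinas 1 and 2, which leaves 1 wildtype dox retina, the sign turned for 5 of the 7.
The main fit between the tissues had no mouse term and took both tissues of a mouse as independent. Averaged over the 4 groups of mice, Cryba4 was higher in the eye cup than in the retina by 1.82 ± 0.71 on the log2 scale (edgeR adjusted p = 0.0281) and Crybb3 by 1.52 ± 0.61 (edgeR adjusted p = 0.0325). These 2 of 7 were called higher where 24.2% of the 26034 genes tested were. Crybb2 differed least, by 0.57 ± 0.68 (edgeR adjusted p = 0.481). With the mouse as a block, since both tissues came from the same mice, Crybb1 was called as well, higher by 1.42 ± 0.45 (edgeR adjusted p = 0.0117). The share of all genes called in that fit is not given here. Both calls without the block were lost when PRDM13-OE dox mouse 2 or untreated wildtype mouse 1 was left out.

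The ratios among the members were then compared, with the level of all 7 removed. Each gene was set over the summed counts of the other 6 in the same library, on the log2 scale, in libraries with at least 10 counts of both. The 7 shares of a library sum to 100%, so a rise in 1 share lowers others. In the retina, the Cryba1 ratio had an SD of 0.12 over the 10 retinas with enough counts, across which its CPM ranged 733-fold, beside 0.13 from counting error alone. In the other 2 retinas, with 6 and 9 Cryba1 counts, its ratio was −2.54 and −2.56 beside a mean of −1.57 in the 10. Crygs had an SD of 0.18 beside 0.16. Crybb2 (0.34 beside 0.15), Cryba4 (0.26 beside 0.13) and Cryba2 (0.29 beside 0.20) had larger SDs. Crybb1 (0.80 beside 0.24) and Crybb3 (0.69 beside 0.24) had the largest, over all 12 retinas, and with a count minimum of 30 theirs were 0.35 and 0.20. In the 6 retinas with at least 1000 summed counts, the SD of Cryba1 was 0.11 beside 0.06 from counting, and that of Crygs was 0.15 beside 0.08.
In the eye cups, the SDs ran from 0.28 for Cryba4 (beside 0.11) to 0.66 for Crybb1 (beside 0.14). The Crybb1 value rested on PRDM13-OE dox eye cup 3, with 26 Crybb1 counts, and with a count minimum of 30 it was 0.17 over 11 eye cups, the lowest of the 7. Cryba1, the steadiest in the retina, had an SD of 0.36 over 11 eye cups beside 0.08 from counting. In the 9 eye cups with at least 1000 summed counts, the SD of Crybb2 was 0.51 beside 0.07 and that of Crybb3 0.51 beside 0.06. Counting error was taken as Poisson and is a lower limit, since separate libraries differ by more than counting, so these SDs alone do not show whether the ratios were fixed.

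**Figure D4:**
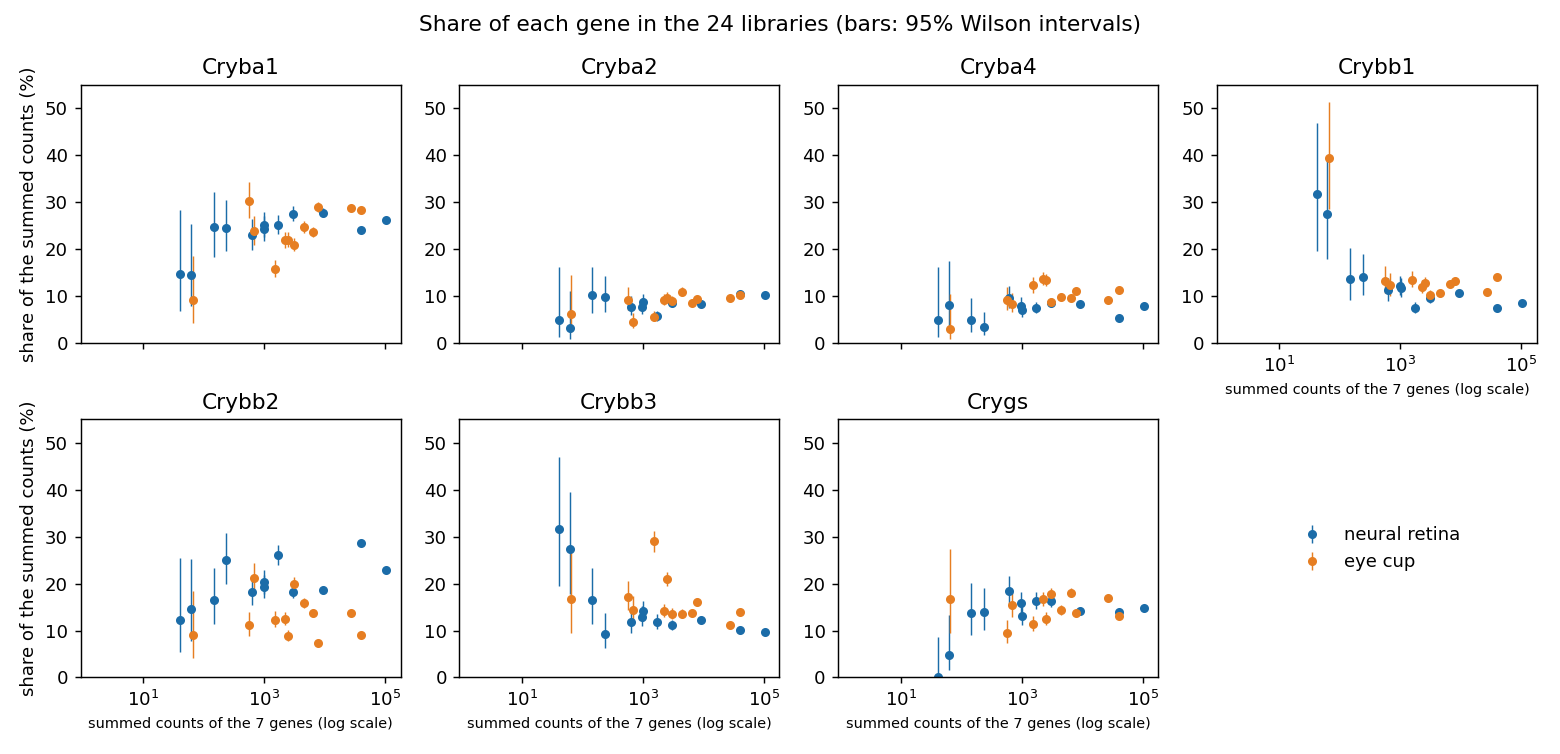
Share of each gene in the summed counts of the 7 (y axis, percent, bars show 95% Wilson intervals for counting error) against those summed counts (x axis, log scale), for 12 retinas (blue) and 12 eye cups (orange). Crybb2 took a larger share in most retinas and Cryba4 in most eye cups, and the 3 libraries with the fewest counts had the largest Crybb1 shares.

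Crybb2 and Cryba4 differed in ratio between the tissues of the same mouse. Crybb2 made up 22.9%, 28.6% and 20.3% of the 7 in the retinas of wildtype mice with dox and 13.7%, 13.8% and 7.43% in their eye cups. In untreated wildtype mice it was 18.6%, 26.1% and 18.3% in the retinas and 9.14%, 15.9% and 8.88% in the eye cups. In untreated PRDM13-OE mice 1 and 3 it was 18.3% and 19.2% in the retinas and 12.5% and 12.3% in the eye cups. The share was thus higher in the retina in each of these 8 mice.
PRDM13-OE dox mouse 2 had the same order (25.0% and 19.9%), and PRDM13-OE dox mouse 1 the opposite (16.4% and 21.2%). The log2 ratio of Crybb2 to the other 6 fell by 0.86 from retina to eye cup (SD of the differences 0.58, 10 mice), a 1.81-fold lower ratio, and was lower in 9 of the 10 mice (exact two-sided sign-flip permutation test, p = 0.00586, unadjusted).
Cryba4 took 7.87%, 5.42% and 7.05% of the 7 in the retinas of wildtype mice with dox and 9.13%, 9.49% and 11.1% in their eye cups. In untreated wildtype mice it took 8.26%, 7.45% and 8.52% in the retinas and 11.2%, 9.80% and 13.4% in the eye cups. In untreated PRDM13-OE mice 1 and 3 it took 9.62% and 7.98% in the retinas and 13.6% and 12.3% in the eye cups.
Its log2 ratio was higher in the eye cup by 0.59 (SD 0.20), 1.51-fold, in 8 of 8 mice (exact permutation p = 0.00781, the smallest that 8 mice allow). None of the PRDM13-OE mice with dox had 10 counts of Cryba4 in the retina, nor had untreated PRDM13-OE mouse 2 (5 counts), so they did not enter. Among these, PRDM13-OE dox mouse 3 alone had the lower share in the eye cup (4.88% in the retina and 3.03% in the eye cup, 2 counts each). With a count minimum of 1, the difference was 0.54 over 12 mice (exact permutation p = 0.00586).
The other 5 ratios did not pass the test over all mice with enough counts. The differences were 0.21 for Crybb3 (SD 0.74, 12 mice, exact permutation p = 0.334), 0.14 for Crybb1 (SD 0.58, 12 mice, exact permutation p = 0.423), −0.12 for Cryba1 (SD 0.31, 10 mice, exact permutation p = 0.264), −0.03 for Cryba2 (SD 0.60, 10 mice, exact permutation p = 0.846) and −0.02 for Crygs (SD 0.34, 10 mice, exact permutation p = 0.885). With a count minimum of 30, which leaves out the libraries with the fewest counts, the Crybb3 difference was 0.53 (8 mice, exact permutation p = 0.00781). In the 6 mice with at least 1000 summed counts in both tissues it was 0.41, and that of Crybb1 was 0.49 (exact permutation p = 0.0312 for both, the smallest that 6 mice allow). None of these tests was adjusted for their number.
Rod transcripts in the eye cups and RPE transcripts in the retinas give the other side of the dissection. Summed over 6 rod genes, eye cups had 2556 to 43357 CPM and retinas 41226 to 59771 CPM, and summed over 8 RPE genes, retinas had 61.5 to 371 CPM and eye cups 7852 to 56297 CPM. The eye cups also held transcripts of other tissues. Summed over 6 surface epithelium genes, eye cups had 789 to 36738 CPM and retinas 0.206 to 16.4 CPM. For 5 skeletal muscle genes these were 219 to 2209 and 3.40 to 36.5 CPM. For 4 ciliary epithelium genes they were 130 to 1629 and 40.3 to 212 CPM. The part of any of these tissues in the ratios was not tested.

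**Figure D5:**
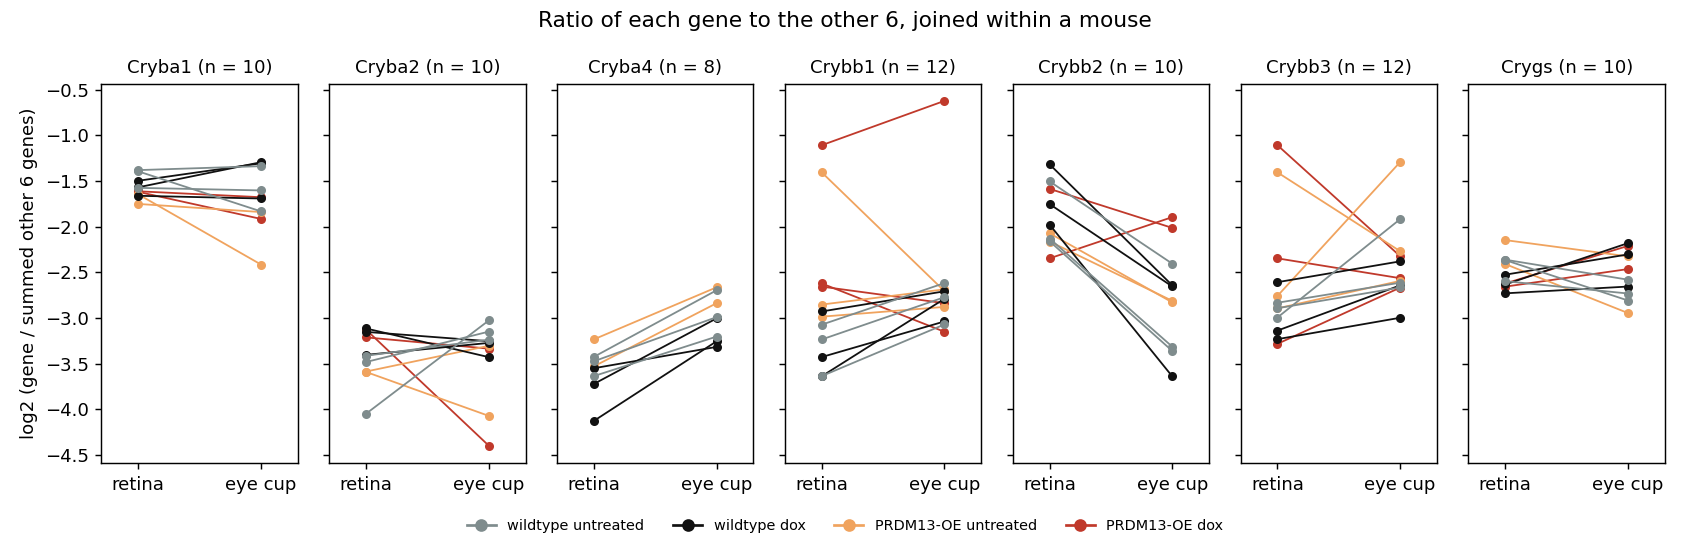
Log2 ratio of each gene to the summed other 6 (y axis) in the retina and the eye cup, with a line per mouse coloured by group and the number of mice in each panel title. Lines for Cryba4 rise in 8 of 8 mice and lines for Crybb2 fall in 9 of 10.

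The libraries with the fewest crystallin counts had a different make-up. In PRDM13-OE dox retina 3, with 41 summed counts, Crybb1 and Crybb3 each took 31.7% (95% Wilson interval 19.6% to 47.0%), and in untreated PRDM13-OE retina 2, with 62, each took 27.4% (17.9% to 39.6%). In PRDM13-OE dox eye cup 3, with 66, Crybb1 took 39.4% (28.5% to 51.5%) and Crybb3 16.7% (9.57% to 27.4%). Crybb1 took at most 14.0% in every other library.
Cryba1, by contrast, took 14.6%, 14.5% and 9.09% in these 3 libraries and at least 15.8% in every other. Crybb1 had 13, 17 and 26 counts in these libraries, more than Cryba1 with 6, 9 and 6. Crybb1 also shared 116 of its 4618 stretches of 50 bases with genes outside the 7, and its gene model overlaps that of Cryba4. The part of either in these shares was not tested. The intervals cover counting error only.
Crybb3 was also high in 1 library with ample counts, the eye cup of untreated PRDM13-OE mouse 3, where it took 29.0% (26.8% to 31.3%) of 1531 counts. It was higher there than in any other library with at least 1000 summed counts.

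Across the 12 retinas, the log2(CPM + 0.5) of Cryaa, the alpha crystallin chaperone of the lens, was most like the mean of the 7 genes (Pearson r = 0.991), followed by the gamma crystallins Crygc (0.989), Crygd (0.985) and Crygb (0.983) and by Bfsp2 (0.982), a beaded filament protein of lens fibres. Across the 12 eye cups the order was Crygd (0.992), Crygb (0.992), Cryaa (0.991), Crygc (0.990) and Crygf (0.973). Of the 16090 genes ranked in the retina 19 were above 0.9, and of the 17022 in the eye cup 7 were. These r describe libraries that share the same high and low mice. Between any 2 of the 7 genes, with counts + 0.5 scaled by library size alone, r was from 0.945 to 0.997 in the retina and from 0.946 to 0.991 in the eye cup.
Per 1000 counts of the 7 genes, Cryaa had between 226 counts, in untreated PRDM13-OE retina 2, and 1067, in wildtype dox retina 2. Mip, the water channel of lens fibres, had 85.6 counts per 1000 in wildtype dox retina 1 and 72.1 in wildtype dox retina 2, but 20.9 in wildtype dox retina 3. It had 10.9 to 86.9 per 1000 in untreated wildtype retinas and 41.7 to 158 in untreated PRDM13-OE retinas. In PRDM13-OE retinas with dox it had 67.8 to 122 per 1000, from only 5 to 16 Mip counts.
In PRDM13-OE against wildtype retinas with dox, 9 of 12 other crystallins were called lower and none was higher. Of the 12 genes on the lens fibre list 10 were tested, of which 8 were called lower and none was higher. Over all 20560 genes tested, 1.5% were called lower. The median log2-fold changes of the other crystallins and the lens fibre genes were −5.91 and −5.49, beside 0.01 over all genes. Of 10 lens regulators, a list with Maf, Prox1 and Foxe3, 3 were called lower, and their median was −0.21. In the eye cups with dox, 0 of 12 other crystallins, 0 of 10 tested lens fibre genes and 0 of 10 lens regulators were called, with medians of −3.36, −2.01 and −0.07. Over all genes tested in these eye cups, 0.0138% were called lower.
Among the fibre genes ranked, r with the mean of the 7 ran from 0.878 (Gja3) to 0.982 (Bfsp2) over the retinas. Over the eye cups it ran from 0.763 (Bfsp2) to 0.954 (Bfsp1). In PRDM13-OE dox eye cup 3, Bfsp2 had 122 counts beside 66 for all 7 genes together. The summed lens fibre level was highest in wildtype retinas with dox. This sum was 6.41 to 741 CPM in wildtype retinas with dox and 2.59 to 4.61 CPM in PRDM13-OE retinas with dox, 10.7 to 62.8 CPM in untreated wildtype retinas and 2.64 to 18.3 CPM in untreated PRDM13-OE retinas. In the eye cups it was 49.5 to 129 CPM in wildtype and 11.3 to 79.7 CPM in PRDM13-OE mice with dox, and 37.1 to 131 CPM in wildtype and 20.7 to 46.0 CPM in PRDM13-OE untreated mice. Lim2 alone of the 12 fibre genes was listed at 0 in all 24 libraries. The part of lens material in the genotype difference was not tested.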

How the data were processed

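RNA from the neural retina and the eye cup of each mouse was sequenced by Novogene for the authors. The submitters' processing notes name CASAVA, HISAT2 and GRCm39 (mm39), and the counting tool, annotation release and strandedness are not given in the sources used here. The authors deposited raw read counts per gene and library, without normalization, and these were the input to every test. The authors also deposited FPKM values, made from each gene's count and its deposited length in bases, and these were used only for levels between genes. The depth they imply was 0.797 to 1.16 times the counted total. The authors' fold changes and p-values of their own comparisons were not used.

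Libraries were scaled by TMM and compared with edgeR 4.0.16 in R 4.3.3 (quasi-likelihood test). The tests covered genes whose summed count reached 10 in the libraries of a comparison, and p-values were adjusted by Benjamini-Hochberg over all of them. Calls required an adjusted p below 0.05 together with an absolute log2-fold change above 1. The ratio of a gene to the summed other 6 was compared within a mouse by an exact two-sided sign-flip permutation test (scipy 1.17.1), in libraries with at least 10 counts of both. Correlations used log2(CPM + 0.5), over genes whose counts in the 12 libraries of a tissue came to 120 or more. Motifs were searched on both strands of 32851 RefSeq promoters, where all 7 genes were matched by symbol. The tests were checked on simulated data.

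All 7 genes passed the filter on low counts in every comparison. The 7 genes, the lists and the rule for named genes (all 7, the 5 most alike genes in each tissue and the listed crystallins, lens regulators and cell type markers) were chosen with earlier results of these data known. Replicates are separate mice. Mouse numbers were shared by different groups, but by genotype and treatment these are different animals, so the numbers were not taken as pairs. Deviations from the group means had correlations from −0.47 to 0.48 between same-numbered libraries of different groups. Between the retina and eye cup of the same mouse, a known pair, they were −0.0026 to 0.15. This measure therefore cannot decide on pairing. The retina and eye cup of a mouse were paired in the ratio tests. The main edgeR fits across tissues had no mouse term, and the mouse as a block was an alternative there. Alternatives were DESeq2 1.42.0, library size in place of TMM, no filter, robust fitting, no fold cutoff, a replicate block, other count minimums and denominators, and leaving out each library or mouse. Intervals and floors cover counting error only.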

Additional observations from a re-analysis of the deposited data

How the results depend on the processing

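In the retinas of mice with dox, all 7 genes were called lower in PRDM13-OE under every alternative that left more than 1 retina in each group, except robust fitting, which called 0. The comparison over both treatments called 6 of them in the retina with robust fitting and 7 under every other alternative that left more than 1 retina in each group. With no filter, 7 were called in each of the other 3 retina comparisons (wildtype dox against untreated, untreated PRDM13-OE against wildtype, and PRDM13-OE dox against untreated) and in the genotype by dox interaction. The share of all genes called is not given here for this or the other alternatives, so these counts have no background beside them. In wildtype dox against untreated and in PRDM13-OE dox against wildtype, the unfiltered edgeR adjusted p of Cryba1 was 0 as written, and the cause was not tested. DESeq2 called 4 in the interaction, 1 in the eye cups with dox, 2 in the eye cups over both treatments and 0 for PRDM13-OE dox against untreated retinas, where robust fitting also called 0.
Leaving out 1 library gave 0 to 7 called for PRDM13-OE dox against untreated retinas (7 without untreated retina 2, 0 without any other), 0 to 7 for wildtype dox against untreated and 0 to 7 for the interaction (7 without wildtype dox retina 3 in both), and 0 to 1 for the genotype by tissue interaction (1 without PRDM13-OE dox eye cup 3). Between the tissues, leaving out 1 mouse gave 0 to 3 called, 0 of them without PRDM13-OE dox mouse 2 or untreated wildtype mouse 1 and 1 without untreated PRDM13-OE mouse 1. Library size in place of TMM called 1 there. Leaving out wildtype dox retinas 1 and 2 was an alternative chosen after seeing the data, and it left 1 wildtype dox retina.
Without those 2 retinas, wildtype dox against untreated turned to −2.06 for Cryba1, −1.83 for Cryba2, −2.16 for Cryba4, −1.73 for Crybb1, −1.89 for Crybb2, −1.71 for Crybb3 and −2.13 for Crygs. The genotype by tissue interaction turned to 0.69 for Cryba1, 0.70 for Cryba2, 0.87 for Crybb1, 0.20 for Crybb3 and 0.26 for Crygs, and the genotype by dox interaction to 0.063 for Cryba2.
A replicate block on the mouse number changed no call by over 1.5 times, with 7 called in PRDM13-OE against wildtype retinas with dox and 3 between the tissues, where the mouse is a true pair. It turned the small eye cup changes of wildtype dox against untreated to 0.56 for Cryba1, 0.28 for Cryba2, 0.25 for Cryba4, 0.43 for Crybb1 and 0.23 for Crybb3, and those of PRDM13-OE dox against untreated to −0.90 for Crybb2 and −1.27 for Crygs. For wildtype Cryba1, DESeq2 gave 0.0013 and library size 0.16, and library size gave 0.0025 for Cryba2.
Leaving out 1 eye cup gave −1.25 to 2.05 (Cryba1), −1.37 to 1.65 (Cryba2), −1.30 to 1.63 (Cryba4), −1.24 to 1.86 (Crybb1), −1.07 to 1.72 (Crybb2), −1.13 to 1.47 (Crybb3) and −0.90 to 2.10 (Crygs) for wildtype dox against untreated. For PRDM13-OE dox against untreated it gave −1.99 to 0.42 (Cryba1), −2.84 to 0.46 (Cryba2), −1.88 to 0.076 (Crybb1), −1.39 to 1.08 (Crybb2) and −1.93 to 0.77 (Crygs).
The Crybb2 and Cryba4 ratios by tissue kept their direction under every alternative, and with 1 mouse left out the first was at least as low as −0.77 and the second between 0.55 and 0.64. Without the pairing (no replicate block), they were −0.88 and 0.48. With 1 mouse left out the others ran from −0.15 to 0.10 (Cryba2), 0.077 to 0.27 (Crybb1) and −0.068 to 0.042 (Crygs). The Crybb3 ratio passed 0.05 at 0.53 with a count minimum of 30, 0.41 in mice with at least 1000 summed counts in both tissues and 0.41 over Crygs, and Crybb1 at 0.49 in those mice and at 0.27 without untreated PRDM13-OE mouse 2. Crybb1 turned to −0.038 over Cryaa, Cryba1 to 0.0021 in those mice, Cryba2 to 0.13 with a minimum of 30, 0.13 with 1 and 0.21 in those mice, and Crygs to 0.082 with a minimum of 1.
The SD of the retina ratios moved, over Crygs, to 0.19 (Cryba1), 0.38 (Cryba2), 0.18 (Cryba4), 0.39 (Crybb1) and 0.31 (Crybb3), with a minimum of 30 to 0.35 (Crybb1) and 0.20 (Crybb3), and in libraries of at least 1000 summed counts to 0.29 and 0.22. In the eye cups it moved over Crygs to 0.43 (Cryba4), 0.41 (Crybb2) and 0.58 (Crybb3), and Crybb1 to 0.17 with a minimum of 30 and 0.19 in libraries of at least 1000, where Cryba2 was 0.30. With 3 mice per group and member levels that ranged 485-fold between eye cups, a tissue or treatment difference of single genes was hard to detect, and low counts limit the shares of 3 libraries.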

Other observations

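Crygn is a crystallin between the beta and gamma families. Cryab is the alpha crystallin and small heat shock protein also made outside the lens. Both had more counts in the eye cup than in the retina in every mouse but wildtype dox mice 1 and 2. In those mice Cryab had 26270 and 17471 counts in the retina and 10422 and 5977 in the eye cup. Crygn had 385 and 286 in the retina and 197 and 97 in the eye cup. Over the eye cups Crygn was less like the 7 genes. Across the 12 eye cups, Crygn had between 76 and 462 counts while the 7 genes summed to between 66 and 40161, and its log2(CPM + 0.5) had a Pearson r of 0.491 with theirs, 391st among the genes ranked. In the eye cup of PRDM13-OE dox mouse 3, Crygn had 88 counts beside 66 for all 7 genes together, and in that of untreated wildtype mouse 1 it had 462 beside 40161. Cryab had 3271 counts in the first of these and 16022 in the second, and its r over the eye cups was 0.811, 12th among the genes ranked. In the retina, by contrast, Crygn had between 1 and 27 counts in 10 libraries and 385 and 286 in wildtype dox retinas 1 and 2, with an r of 0.904. Averaged over the 4 groups, Crygn was higher in the eye cup than in the retina by 3.82 ± 0.47 on the log2 scale (edgeR adjusted p = 4.04e-07) and Cryab by 2.37 ± 0.33 (edgeR adjusted p = 2.29e-06), where 24.2% of genes were called higher. This fit had no mouse term.

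The wildtype retinas with the most crystallin counts differed in Foxe3 relative to the 7 genes. Foxe3, a transcription factor of the lens epithelium, had 548 counts in wildtype dox retina 2 and 196 in wildtype dox retina 1, and at most 2 in each of the other 10 retinas. Per 1000 counts of the 7 genes this was 13.7 and 1.90. Mip, the water channel of lens fibres, had 72.1 and 85.6 counts per 1000 in the same libraries. Relative to the 7 genes, these libraries thus differed in Foxe3 and were closer in Mip. This sets 1 library beside 1 other, and the difference was not tested.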
